A study of Homo sapiens with 2 samples.

Results

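Accessible chromatin on chromosomes 16, 17 and 22 was examined in the mantle cell lymphoma line Z-138. Every peak deposited for these 3 chromosomes was taken, which gave 6849 peaks of the 96664 on chromosomes 1 to 22 and X in both peak lists. Of these, 3821 came from the control library and 3028 from the SMARCA4 knockdown library. The chromosomes were chosen by measured values of these same lists: a larger part of their control peaks than peak strength gives was also called in the knockdown list. The overlap between the lists and the values derived from it are therefore descriptions, and no test is made on them.

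Z-138 is an established human line of mantle cell lymphoma, a cancer of mature B cells. Cells with a control shRNA and cells with an shRNA against SMARCA4 were both cultured with doxycycline, per the labels, and 1 ATAC-seq library was made from each. The peak names of both lists carry the word DMSO, so no drug is compared here. In ATAC-seq a transposase cuts and tags DNA that is not packed away in nucleosomes, so stacked reads mark open chromatin. The study's design connects SMARCA4 loss with how such cells respond to ibrutinib plus venetoclax. With 1 library a group, differences between libraries cannot be set against the spread between cultures, and the knockdown itself cannot be checked from peaks. Intervals below are 95% counting intervals over regions and cover counting error only.

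SMARCA4 is an ATPase of the SWI/SNF (BAF) remodelling complexes, which slide or evict nucleosomes and keep many enhancers and promoters open. Chromosomes 16, 17 and 22 belong to the gene-dense part of the human genome, where promoters of broadly active genes are common. Chromosome 16 has a long block of heterochromatin beside its centromere, and the short arm of chromosome 22 consists of repeats. The RefSeq table for GRCh38.p14, used here for gene numbers only, lists 854 protein-coding genes on chromosome 16, 1169 on chromosome 17 and 451 on chromosome 22. It lists 270 on chromosome 18, a gene-poor chromosome of similar size to chromosome 17, and 1451 on chromosome 19. By total number chromosome 22 is thus not gene-rich. Per 5 Mb window with a region, the numbers are 47.4, 68.8 and 56.4 genes on chromosomes 16, 17 and 22. These rank 5, 2 and 3 of 23, and chromosome 11 ranks 4 with 48.2. The gene-rich label thus holds by density, with GRCh38.p14 gene numbers divided by windows of hg19 peaks. Whether any trait below follows gene density was not tested. No hg19 gene annotation was used here, and regions are named by hg19 position alone.

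Depth was solved from the weakest expected backgrounds in the lists. With a genome of 2.7 Gb assumed, it was 6.89 M reads or fragments for the control library and 9.76 M for the other. On chromosomes 16, 17 and 22 the lowest called summit had 3 stacked reads for the control and 4 after knockdown. Sites with a higher local background need more reads to be called, and a region missing from a list is not shown to be closed.

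The knockdown list held fewer regions than the control list on each of these chromosomes, by a smaller margin than on all other chromosomes together. Chromosome 16 had 1424 control and 1117 knockdown regions, which is 78.4% of the control number (72.5 to 84.9%). Chromosome 17 had 1844 and 1473, or 79.9% (74.5 to 85.6%). Chromosome 22 had 553 and 438, or 79.2% (69.7 to 89.9%). Together the knockdown number was 79.2% of the control number (75.5 to 83.1%), against 75.1% (74.1 to 76.1%) on all other chromosomes. The pooled interval reaches below the upper bound of the other chromosomes, so this gap in number alone lies near counting error. Chromosome 18 had 70.5% (64.6 to 77.0%) and chromosome 19 had 87.1% (80.9 to 93.9%). Chromosomes 16, 17 and 22 rank 7, 3 and 6 of 23, and chromosomes 6, 7 and 12 had similar values, 79.3%, 79.5% and 80.1%. In covered length the libraries were closer. Knockdown regions spanned 717 kb of these chromosomes and control regions 810 kb, a proportion of 88.5%, against 81.6% elsewhere.

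Regions were spread unevenly along the chromosomes. Windows of 5 Mb counted from position 0 held between 1 and 199 control regions over the 43 windows with any region, with a median of 89. The density was 21.7 control regions per Mb on chromosome 17, 15.8 on chromosome 16 and 13.8 on chromosome 22, against 18.5 over the windows of all other chromosomes. Each value divides by the full 5 Mb of every window with any region, so partly empty windows lower it. By this measure a high number per Mb was not shared by the 3 chromosomes. Chromosome 16 had no control region for 11.4 Mb, between 35143576 and 46588368, around its centromere. The longest such span was 3.33 Mb on chromosome 17, between 21956207 and 25285997. On chromosome 22 the first control region began at 16166578. Regions that lay close to another were common: 34.9% of control regions on chromosome 16, 32.6% on chromosome 17 and 34.7% on chromosome 22 had the next one within 5 kb. The share was 29.7% on all other chromosomes and 24.1% on chromosome 18. Chromosomes 16, 17 and 22 rank 2, 5 and 3 of 23, with 38.6% on chromosome 19, 33.1% on chromosome 15 and 32.5% on chromosome 1. The median gap to the next control region was 9.70 kb, 9.96 kb and 10.5 kb on chromosomes 16, 17 and 22, against 12.1 kb elsewhere and 14.4 kb on chromosome 18. It was 10.5 kb on chromosome 1 as well.

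**Figure D1:**
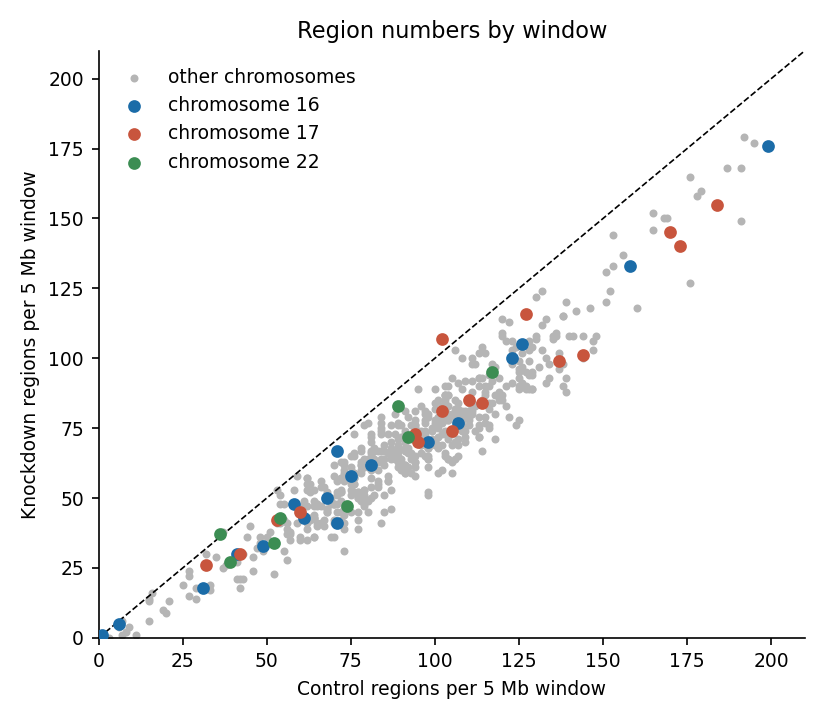
Number of control regions (x axis) and knockdown regions (y axis) in each 5 Mb window; every point is 1 window, coloured for chromosomes 16, 17 and 22 and grey for the others, and the dashed line marks equal numbers. Most coloured windows lie under the line like the grey ones; a window of chromosome 17, with 102 control and 107 knockdown regions, and a small one of chromosome 22, with 36 and 37, lie above it.

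Regions of these chromosomes were wider than those elsewhere in both lists. Their median fold was lower, except in the knockdown list on chromosome 16. The median width of control regions was 176 bp on chromosome 16, 174 bp on chromosome 17 and 169 bp on chromosome 22, which rank 2, 3 and 4 among 23 chromosomes after chromosome 19 (191 bp). All other chromosomes together had 160 bp, and chromosome 18 had the smallest median, 149 bp. Chromosome 11, which ranks above chromosome 16 by gene density, had 160 bp. In the knockdown list the medians were 185, 181 and 187 bp on chromosomes 16, 17 and 22, against 162 bp elsewhere.

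Enrichment is the authors' fold, the reads stacked at a peak's summit over the expected background of the same library. Its control median was 6.29 on chromosome 16, 6.12 on chromosome 17 and 5.65 on chromosome 22, which is the lowest of all 23 chromosomes. It was 6.45 on all other chromosomes together, with 5.82 on chromosome 15 and 5.85 on chromosome 20. In the knockdown list the medians were 7.05, 6.81 and 6.75, against 7.05 elsewhere, with chromosome 22 again the lowest of 23. Strong peaks were scarce in both lists: 12.9% of control regions on the 3 chromosomes had a fold of 10 or more, against 19.2% elsewhere, and 19.6% of knockdown regions did, against 23.4%. Chromosomes 15, 19 and 20 had similar or lower control shares, 13.8%, 12.7% and 10.7%. Wide regions of 600 bp or more were scarce as well, with 1.31% of control regions here and 2.78% elsewhere. This too was not particular to the 3, with 1.16%, 1.15% and 1.27% on chromosomes 15, 20 and 21.

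At equal fold, the regions of these chromosomes were the wider ones. Control regions with a fold from 6 to 8 had a median width of 194 bp (186 to 200 bp) over 969 regions, against 162 bp (160 to 163 bp) over 11894 regions elsewhere. From 8 to 10 the medians were 259 bp (246 to 277 bp) and 213 bp (210 to 217 bp). From 10 to 12 they were 308 bp (290 to 325 bp) and 267 bp (259 to 271 bp). At folds of 15 or more the order was no longer seen, with 321 bp (279 to 368 bp) over 52 regions and 329 bp (320 to 340 bp). The knockdown list had the same order from 8 to 10, with 267 bp (254 to 282 bp) against 202 bp (198 to 205 bp).

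Among strong regions the lists compared differently according to the measure of strength. At a fold of at least 10, chromosomes 16, 17 and 22 held 494 control and 593 knockdown regions, or 120% (106 to 136%), whereas the other chromosomes held 9827 and 8996, or 91.5% (89.0 to 94.2%). The knockdown list had the larger number on each of the 3 chromosomes, with 225 against 193 on chromosome 16 (117%, 95.8 to 142%), 299 against 252 on chromosome 17 (119%, 100.0 to 141%) and 69 against 49 on chromosome 22 (141%, 96.2 to 207%). The knockdown list also had the larger number on chromosomes 15 (197 against 190), 19 (266 against 193) and 20 (126 against 102). On each remaining chromosome it had the smaller number. The fold is not adjusted for the difference in depth. When summit reads were used instead, with control summits multiplied by the 1.34-fold ratio of the lowest backgrounds, the direction turned. At 20 or more scaled reads there were 531 control and 378 knockdown regions, or 71.2% (62.2 to 81.4%), against 61.3% (59.5 to 63.1%) elsewhere. At 15 or more the proportion was 81.6% (74.0 to 89.9%), against 71.0% (69.4 to 72.7%). Under both measures the knockdown share was higher on the 3 chromosomes together than on the others together, and whether it passed equality depended on the measure. At 20 reads the interval of the set reaches below the upper bound of the other chromosomes.

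**Figure D2:**
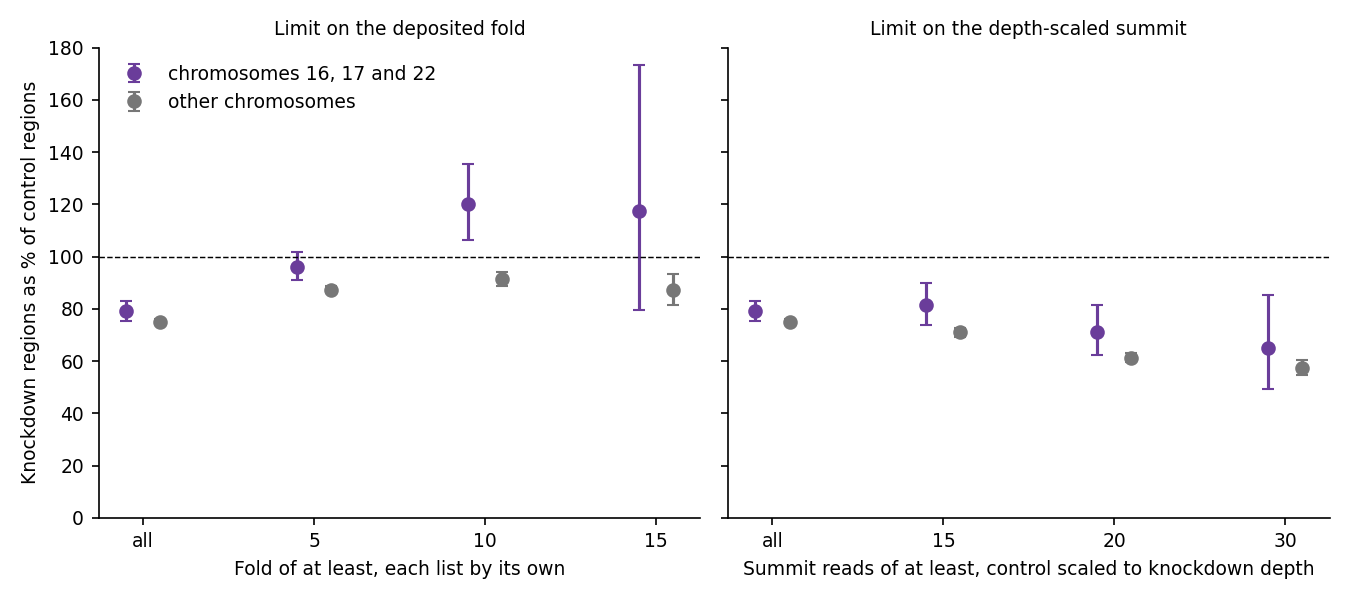
Knockdown regions as a percentage of control regions (y axis) for all regions and above 3 limits of deposited fold (left) or of depth-scaled summit reads (right); purple is chromosomes 16, 17 and 22 together, grey all other chromosomes, bars are 95% counting intervals and the dashed line is equality. The purple value is at 120% for folds of 10 or more and at 71.2% for summits of 20 reads or more, and is the higher of the pair at every limit shown.

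Wide regions showed the same contrast. The knockdown list had 101 regions of 600 bp or more on the 3 chromosomes and the control list 50, or 202% (143 to 289%), against 134% (125.2 to 144%) on the others. On chromosome 17 the numbers were 58 and 22, or 264% (159 to 452%), and on chromosome 16 they were 38 and 24, or 158% (92.5 to 276%). On chromosome 22 they were 5 and 4, too few to compare. The lower bound of the set, 143%, lies below the upper bound of the others, 144%. The knockdown list had the larger number on every chromosome, such as 82 and 44 on chromosome 10, 48 and 32 on chromosome 19 and 34 and 32 on chromosome X. Every one of the 50 wide control regions had a knockdown partner, as did 100% of the 1476 in the whole control list. Widths are not adjusted for the depth of the libraries, and its part in these numbers was not tested.

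A region is said to have a partner when at least 1 bp of it lies in a region of the other list. A knockdown partner was found for 910 of 1424 control regions on chromosome 16, or 63.9% (61.3 to 66.4%). On chromosome 17 it was found for 1174 of 1844, or 63.7% (61.4 to 65.9%), and on chromosome 22 for 341 of 553, or 61.7% (57.5 to 65.7%). Over all control regions the share was 60.5%. Since this contrast chose the chromosomes, nothing is read from the difference. In the opposite direction, a control partner was found for 79.6% (77.1 to 81.9%), 78.7% (76.5 to 80.7%) and 77.4% (73.2 to 81.2%) of knockdown regions on chromosomes 16, 17 and 22. Over all knockdown regions this share was 79.4%.

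Partner shares go with the strength of a peak, so they were set beside those that fold alone would give. For this, regions were put in 13 bands of fold and the share of each band over the genome was averaged over the regions of a chromosome. Fold gave 58.7% for control regions of chromosome 16, 57.0% for chromosome 17 and 53.9% for chromosome 22. The observed shares were thus 5.21 (2.66 to 7.71), 6.69 (4.45 to 8.89) and 7.77 (3.57 to 11.8) percentage points higher, and 6.30 (4.75 to 7.83) points higher for the 3 together. These values rank 4, 3 and 2 of 23, after chromosome 19 with 14.6 points. The next below them was chromosome 20 with 3.75, and chromosome 18 had -2.04 (-4.87 to 0.74). Chromosome 11, which ranks above chromosome 16 by gene density, had 0.49 (-1.52 to 2.48). Knockdown regions showed no such excess, at 0.38 (-2.11 to 2.70), 0.00 (-2.18 to 2.06) and 0.14 (-4.07 to 3.97) points. The chromosomes were chosen by the excess of control regions. Its size, its ranks and its contrast with the knockdown regions are therefore descriptions only.

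**Figure D3:**
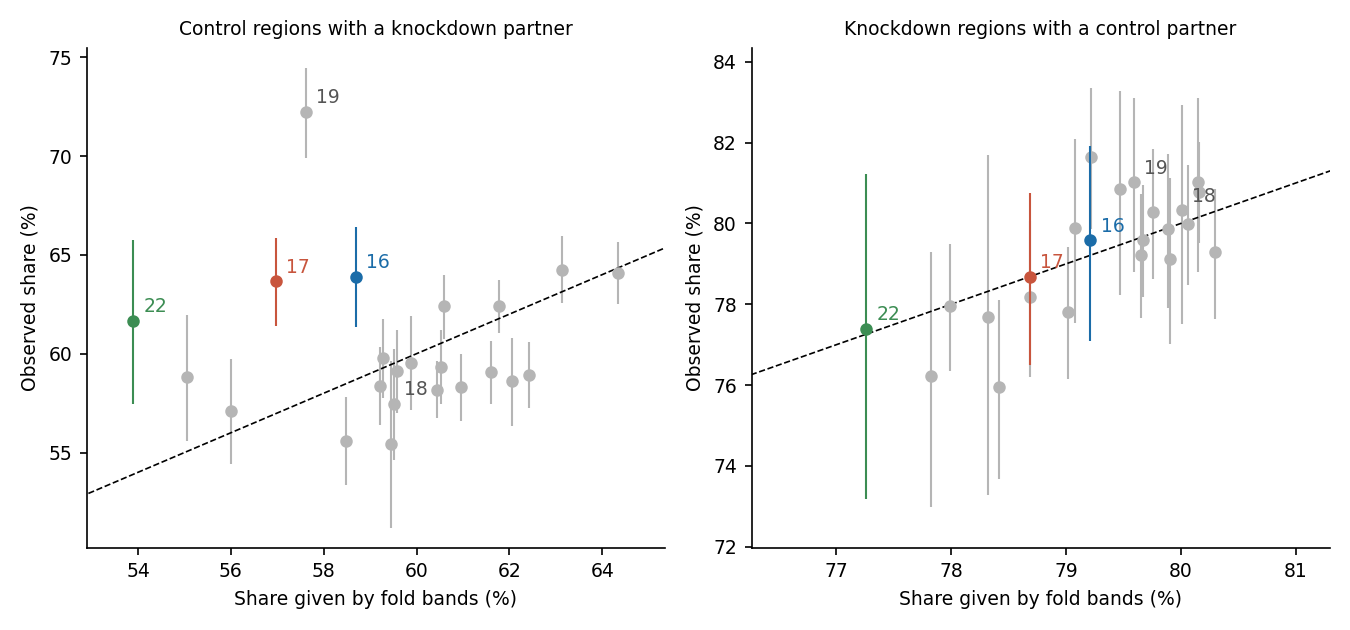
Observed share of regions with a partner in the other list (y axis, %) against the share given by 13 bands of fold (x axis, %), for control regions (left) and knockdown regions (right); each point is 1 of 23 chromosomes with its 95% interval, and the dashed line marks equality. Chromosomes 16, 17 and 22 lie 5.21, 6.69 and 7.77 points above the line on the left and within their intervals of it on the right.

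With width in place of fold, most of this excess was gone. With regions grouped in 14 bands of width alone, the shares given were 63.0%, 62.6% and 61.1% for chromosomes 16, 17 and 22. The observed shares then differed from them by 0.86 (-1.69 to 3.36), 1.03 (-1.21 to 3.23) and 0.52 (-3.67 to 4.59) points. Chromosome 19 still stood 6.74 points higher (4.42 to 8.98) under the same grouping. With fold and width together the excess of the 3 chromosomes was 4.22 points (2.67 to 5.75), and with summit reads it was 7.91 (6.36 to 9.44). Within classes of width the partner shares were close to those elsewhere. Among control regions of 150 to 200 bp the share was 64.3% (60.7 to 67.7%) here and 64.0% on the other chromosomes. Among those of 300 to 600 bp it was 95.1% (93.2 to 96.6%) and 94.1%, and among those under 100 bp 25.7% (22.4 to 29.2%) and 23.4%. These classes do not match regions by fold. The median control fold was 6.24 here and 7.03 elsewhere at 150 to 200 bp, and 8.93 and 10.2 at 300 to 600 bp. Grouping by width alone thus sets weaker regions here beside stronger ones elsewhere, and what part width has in the excess was not tested. The bands of width alone were chosen after the values by fold had been seen. A stricter partner also changed the picture by fold: with 50% reciprocal overlap the excess was 1.48 (-1.15 to 4.11), 3.55 (1.25 to 5.86) and 1.15 (-3.02 to 5.40) points on chromosomes 16, 17 and 22.

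By fold, the higher share was seen in weak and intermediate peaks and not in the strongest. Below a fold of 4, a partner was found for 60 of 210 control regions, which is 28.6% (22.6 to 35.2%), and for 16.8% elsewhere. From 6 to 8 the share was 74.4% (71.5 to 77.1%), against 66.1%. From 8 to 10 it was 90.1% (87.2 to 92.6%), against 83.6%. From 12 to 15 it was 95.9% (91.3 to 98.5%), against 96.0%, where both groups had nearly reached their ceiling. On chromosome 22 the class below 4 held 14 partners for 32 regions, whereas its class from 4 to 5 had the share that fold gave, at 47 of 161 regions or 29.2%.

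**Figure D4:**
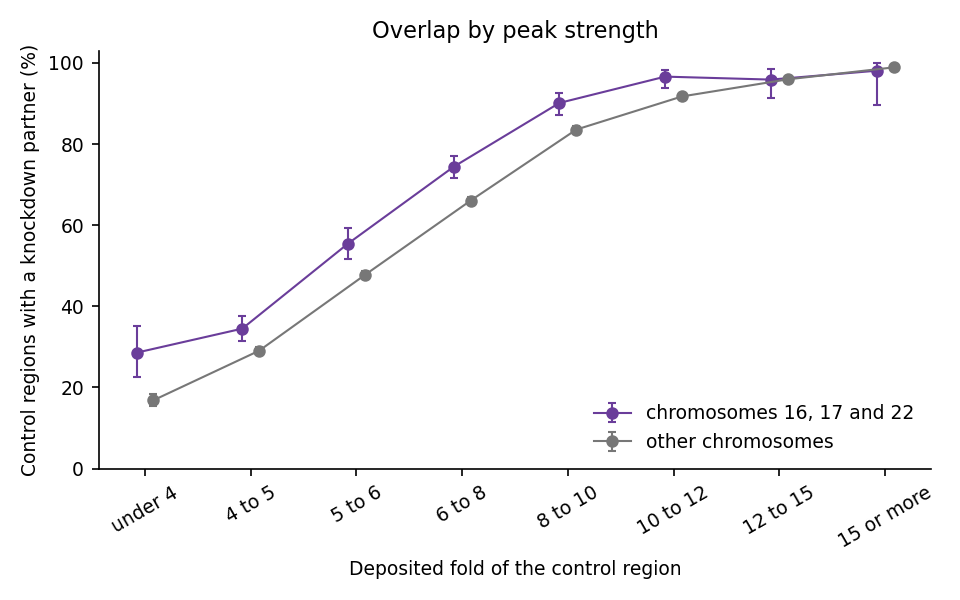
Share of control regions with a knockdown partner (y axis, %) by class of deposited fold (x axis), for chromosomes 16, 17 and 22 together (purple) and all other chromosomes (grey), with 95% intervals. The purple points are higher up to a fold of 12, for example 74.4% against 66.1% from 6 to 8, and meet the grey ones above it.

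The distance to the next region of the same list also went with the share. Control regions with another within 500 bp had a partner in 75.4% of 776 cases (72.2 to 78.4%), against 71.7% on the other chromosomes. Those with the next region at 500 bp to 5 kb had one in 61.3% of 514 cases (56.9 to 65.5%), against 62.0%. Those with the next region at 5 to 20 kb had one in 62.4% of 1359 cases (59.8 to 65.0%), against 58.5%. The isolated ones, at 100 kb or more from the next, had one in 53 of 120 cases, or 44.2% (35.1 to 53.5%), against 50.4% elsewhere. Isolated regions thus showed no higher share than elsewhere on any of the 3 chromosomes, with 25 of 52 on chromosome 16, 18 of 40 on chromosome 17 and 10 of 28 on chromosome 22. With fold bands split by distance the excess of the 3 chromosomes was 5.56 points (4.01 to 7.09).

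At shared regions, depth-scaled knockdown summits were lower than their control partners, by less on these chromosomes than on the others together. Over 2425 control regions with a partner the knockdown summit had a median of 1.21 times the reads of its control partner, below the 1.34-fold difference in lowest background. After scaling by that difference, the log2 ratio (knockdown over control) had a median of -0.15 (-0.20 to -0.10) on chromosome 16, -0.14 (-0.18 to -0.10) on chromosome 17 and -0.13 (-0.20 to -0.06) on chromosome 22. It was -0.25 (-0.25 to -0.25) over 30933 pairs on all other chromosomes, -0.27 (-0.32 to -0.22) on chromosome 18 and -0.24 (-0.27 to -0.20) on chromosome 11. Chromosomes 16, 17 and 22 rank 4, 3 and 2 of 23, after chromosome 19 with -0.10 (-0.13 to -0.06). Chromosome 20 had -0.16 (-0.20 to -0.10) and chromosome 15 had -0.18 (-0.20 to -0.13), so the smaller difference was not particular to the 3. Ratios below 0 made up 61.9% of pairs on the 3 chromosomes and 71.1% elsewhere. Overlap chose these chromosomes, and whether a partner is called depends on the knockdown summit. The ratio is therefore not separate from the choice, and it is a description only, also by class of fold.

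The ratio is given by class of control fold. The control summit is its denominator and weak control regions enter only with a called partner, so the order of the classes says nothing about the knockdown, and values are compared within a class. For control folds below 6 it was 0.16 (0.11 to 0.16) on the 3 chromosomes and 0.06 (0.06 to 0.09) on the others. From 6 to 10 it was -0.23 (-0.27 to -0.18) over 1187 pairs, against -0.29 (-0.30 to -0.27). From 10 to 15 it was -0.33 (-0.36 to -0.27) over 426 pairs, against -0.42 (-0.42 to -0.42). At folds of 15 or more it was -0.42 (-0.60 to -0.32) over 51 pairs, against -0.56 (-0.58 to -0.54). The 3 chromosomes had the higher median in each class, with intervals that met from 6 to 10 and overlapped in the strongest class.

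The reads around a peak also differed less between the libraries here than on the other chromosomes together. Whether they go with the summit ratio from pair to pair was not tested. In the 10 kb around each pair, where both backgrounds were above the libraries' floor, the depth-scaled log2 ratio of reads was -0.05 (-0.10 to -0.02) on chromosome 16, -0.05 (-0.07 to -0.03) on chromosome 17 and -0.01 (-0.05 to 0.04) on chromosome 22. It was -0.14 (-0.15 to -0.14) on all other chromosomes, and chromosome 22 had the highest value of the 23. With summits scaled to these surrounding reads in place of depth, the median was -0.08 (-0.12 to -0.03), -0.10 (-0.12 to -0.07) and -0.13 (-0.20 to -0.07) on chromosomes 16, 17 and 22, against -0.13 (-0.14 to -0.13) elsewhere. On the same 729, 950 and 237 pairs, scaling by depth gave -0.13 (-0.20 to -0.10), -0.14 (-0.18 to -0.10) and -0.10 (-0.18 to -0.03), against -0.26 (-0.27 to -0.25) over 26017 pairs elsewhere. The chromosomes were thus closer to the rest with the surrounding reads as the scale, and the median of chromosome 22 was that of the rest. The surrounding 10 kb include the peak itself and its neighbours, and what part they have in the overlap between the lists was not tested.

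Summits of partners lay further apart here than on the other chromosomes together. The median distance was 35 bp on chromosomes 16 and 17 and 42 bp on chromosome 22, against 28 bp on the other chromosomes and 25 bp on chromosome 18. Similar distances were seen on chromosomes 19 (41 bp), 20 (35 bp) and 15 (34 bp). More regions also met several regions of the other list: 4.52% of the knockdown regions with a partner overlapped at least 2 control regions, against 3.35% elsewhere. By chromosome this share was 5.62% on chromosome 16, 3.45% on chromosome 17 and 5.31% on chromosome 22. Chromosome 17 was thus close to the share elsewhere, while chromosomes 9 and 19 had 4.90% and 5.30%.

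Along the chromosomes, 37 windows had at least 40 control regions, and 29 of them had a partner share higher than fold gives. The counting interval lay wholly above that share in 10 windows and wholly below it in 0. Over all 565 windows compared, 7.96% were above and 4.42% below, and since overlap chose these chromosomes nothing is read from the difference. The 10 windows were 3 of 15 on chromosome 16, 4 of 16 on chromosome 17 and 3 of 6 on chromosome 22. With bands of width alone 1 of the 37 was above. Across the 37 windows, the excess had a Pearson r of 0.59 and a Spearman rho of 0.60 with the median width of the window's control regions, and 0.26 and 0.21 with their number. Over the 528 windows of the other chromosomes the coefficients were 0.51 and 0.47 for width and 0.40 and 0.32 for number. The differences between coefficients were not tested, and they describe windows of 1 pair of libraries and are not replicated.

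**Figure D5:**
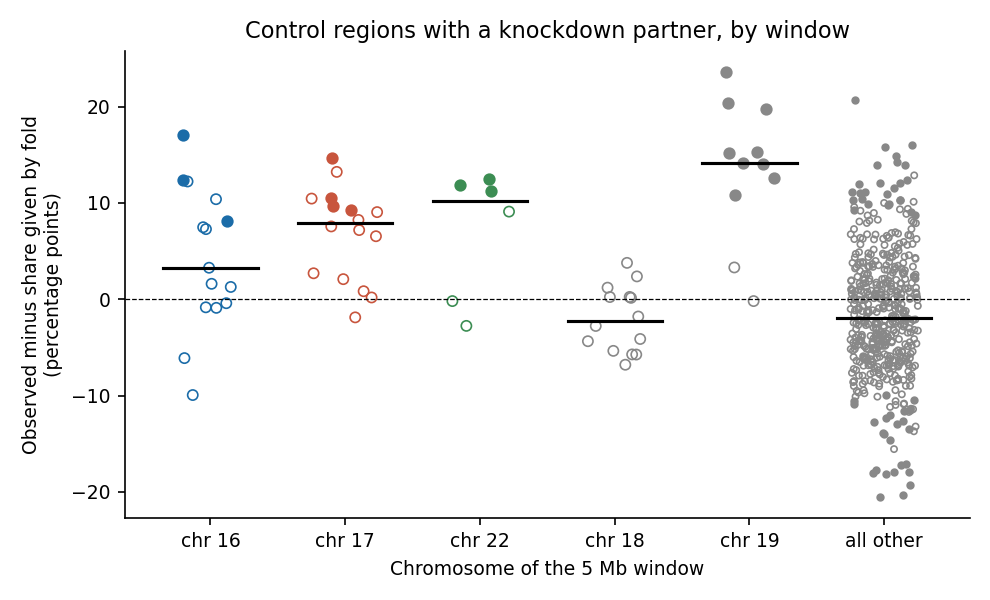
Observed minus fold-given share of control regions with a knockdown partner (y axis, percentage points) in 5 Mb windows with at least 40 control regions, by chromosome (x axis); filled points have a 95% interval that excludes 0, and bars are medians. The medians are 3.27 on chromosome 16, 7.89 on chromosome 17 and 10.2 on chromosome 22, against -2.29 on chromosome 18 and 14.2 on chromosome 19.

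On chromosome 16 the extremes of the partner share both lay on the short arm. The first window, from 0 to 5 Mb, had the most control regions of all windows in the genome, 199, with 176 knockdown regions. A partner was found for 141 of the 199, or 70.9% (64.0 to 77.1%), where fold gives 58.5%, and its median control width was 201 bp. The first 3 Mb alone had 126 control regions, 88 of them with a partner. The highest share was in the window from 25 to 30 Mb, with 54 of 71 or 76.1% (64.5 to 85.4%) against 59.0%, and 67 knockdown regions. The lowest was in the window from 10 to 15 Mb, with 32 of 71 or 45.1% (33.2 to 57.3%) against 55.0%, and 41 knockdown regions. On the long arm no window from 45 to 85 Mb lay outside its interval, and the window from 85 to 90 Mb was above it, with 96 of 158 or 60.8% (52.7 to 68.4%) against 52.6%.

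Chromosome 17 was more even along its length. The window with most regions, from 70 to 75 Mb, had 184 control and 155 knockdown regions, and its share of 66.3% (59.0 to 73.1%) was close to the 63.6% given by fold. The highest share, 39 of 53 or 73.6% (59.7 to 84.7%) against 60.4%, was in the last window, from 80 Mb. The lowest, 22 of 42 or 52.4% (36.4 to 68.0%) against 54.3%, was in the window from 10 to 15 Mb. Windows above the share given by fold were those from 5 to 10, 40 to 45, 45 to 50 and 55 to 60 Mb. The window from 5 to 10 Mb was the only one of all 565 compared in which the knockdown list had more regions than the control list, 107 against 102. In the first 3 Mb of this chromosome, 32 of 57 control regions had a partner.

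On chromosome 22 the window with most regions, from 20 to 25 Mb, had 117 control and 95 knockdown regions, with a partner for 77 or 65.8% (56.5 to 74.3%) against 54.5%. The highest share was in the window from 40 to 45 Mb, with 62 of 92 or 67.4% (56.8 to 76.8%) against 54.9%. It was followed by the window from 35 to 40 Mb, with 59 of 89 and 83 knockdown regions. The neighbouring window from 45 to 50 Mb had the lowest share, 22 of 52 or 42.3% (28.7 to 56.8%) against 45.1%. Its median control fold, 5.36, was the lowest of the 37 windows, and its partners had the lowest median summit ratio, -0.42.

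Strong control regions without a partner were few. From a fold of 12 upwards, 7 of the 198 control regions of the 3 chromosomes had none, or 3.54% (1.43 to 7.15%). Over the whole control list 3.07% of such regions had none. They were 4 of 83 on chromosome 16, 3 of 105 on chromosome 17 and 0 of 10 on chromosome 22, where a count of 0 allows up to 30.8% by the exact interval. Among 265 knockdown regions with a fold of 12 or more in their own list, 0 lacked a control partner (upper bound 1.38%), where 0.0755% did over the whole list. Fold is not adjusted for depth, so these control and knockdown regions are not matched in strength. Regions without a partner were narrow and weak in both lists, with a median width of 120 bp and a median fold of 4.84 for 1396 control regions, against 218 bp and 7.12 for those with one. The 641 knockdown regions without a partner had medians of 111 bp and 5.30, against 221 bp and 7.57.

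On chromosome 16 the strongest control-only region was chr16:33046614-33046757, which is 144 bp wide with a fold of 13.9 and 19 summit reads. The closest region of the knockdown list lay 25.6 kb from it. The next were chr16:47426160-47426327, with a fold of 13.8 and 17 reads, and chr16:75725989-75726183, with a fold of 13.2 and 17 reads. Their nearest knockdown regions were at 68.6 kb and 43.4 kb. Brought to the knockdown depth, these 3 summits would hold 22.8 to 25.5 reads, where the lowest called summit was 4.

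On chromosome 17 the strongest control-only region of the 3 chromosomes was found, chr17:53741692-53741909, 218 bp wide with a fold of 15.7 and 23 reads. It was followed by chr17:65318326-65318528 with a fold of 12.7 and 16 reads, and by chr17:61217725-61217962 with a fold of 12.01 and 17 reads. Nearest knockdown regions were 22.3, 28.2 and 53.4 kb away. Chromosome 22 had weaker ones. Its first, chr22:30838427-30838626, had a fold of 11.3 and 13 reads, and the others, chr22:39843069-39843224 and chr22:44421584-44421867, had folds of 8.72 and 8.46 with 11 and 12 reads. The last of these lay 1.35 kb from a knockdown region.

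Of the knockdown-only regions, the strongest were chr22:23412315-23412474, at 10.8-fold with 16 reads, and chr17:42201121-42201249, at 10.6-fold with 15 reads. The latter lay 101 bp from a control region. On chromosome 16, chr16:85120425-85120587 was enriched 10.1-fold with 15 reads, and its nearest control region was at 25.4 kb, and chr16:89307327-89307502 had a fold of 9.09 and a control region at 136 bp. The second on chromosome 17, chr17:77083753-77083917, and on chromosome 22, chr22:39795652-39795856, each had a fold of 10.5 and 14 reads, with control regions at 12.7 and 47.2 kb. Brought to the control depth, the 6 summits would hold 10.4 to 11.9 reads.

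The most enriched regions were present in both lists. On chromosome 22 both lists had their maximum at the same place, chr22:18717988-18718209 in the control, with a fold of 27.6 and 51 reads, and a knockdown region of 217 bp reaching 23.4-fold with 43 reads. On chromosome 16 the control maximum, chr16:74700686-74701018, had a fold of 22.005 and its partner 20.2, each with 39 reads. The knockdown maximum there, chr16:62259705-62260020, had a fold of 21.5 and 49 reads, against 17.1 and 34 reads in the control. On chromosome 17 the control maximum, chr17:67231619-67231904, had a fold of 21.4 and 34 reads, and its partner had 13.3 and 21 reads, a depth-scaled log2 ratio of -1.12. The knockdown maximum, chr17:80325709-80326132, had a fold of 18.8 and 48 reads, against 15.9 and 34 reads in the control. Each of these pairs compares single summits of few reads.

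Regions of 600 bp or more had a median fold of 9.03 among control and 10.1 among knockdown regions. The widest control regions were chr16:50186512-50187470 with 959 bp, chr17:62971396-62972320 with 925 bp and chr22:17517854-17518759 with 906 bp, with folds of 6.70, 7.59 and 6.45. Their knockdown partners measured 733 and 874 bp on chromosomes 16 and 17, while the region on chromosome 22 met 3 separate knockdown regions. The widest knockdown regions were chr16:30381613-30382613 with 1001 bp, chr17:80055930-80056836 with 907 bp and chr22:41777326-41778080 with 755 bp, with folds of 10.1, 7.96 and 9.83. Those on chromosomes 16 and 17 each overlapped 2 control regions. The other 3 of these 6 regions each met 1 region of the other list.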

How the data were processed

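The deposited lists of 10 columns hold ATAC-seq peaks of 2 libraries, called in each library separately; bcl2fastq 2.17.1.14, BWA, MACS2 and hg19 are named per the submitters' processing notes, with parameters not given in the sources used here. The deposited fold is the ratio of summit reads to expected background after adding 1 read to both; the deposited −log10 values are the p- and q-value of the summit, and the deposited score is 10 times the −log10 q-value without decimals. Peaks of chromosomes 1 to 22 and X entered. Summit reads and background were solved for each peak from its fold and p-value under a Poisson tail (largest error 4.2e-05 on the −log10 scale). The extension lengths, taken as the shortest peak, were 94 and 89 bp, and the lowest backgrounds 0.24 and 0.322 reads. The solution and the band averages were tested on simulated data. Intervals of shares are Clopper-Pearson; those of number ratios come from the binomial share, those of medians from order statistics. Neighbouring regions are not independent, and reads without molecular identifiers are not independent molecules. The members, comparisons and rules were chosen with earlier results of these data known. Named on each chromosome were the 3 control-only and 2 knockdown-only regions of highest fold, the pairs of highest fold, the widest regions, and the windows with the highest and lowest partner share and with most regions. No hg19 sequence or gene annotation was used here. Python 3.11.15, numpy 2.4.6, pandas 2.3.3 and scipy 1.17.1 were used.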

Additional observations from a re-analysis of the deposited data

How the results depend on the processing

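No paired analysis was possible because each group has 1 library, and none could be left out. Knockdown regions were 79.2% of control regions, 88.2% with q-values up to 0.001, 92.9% up to 1e-05, 96.2% from a fold of 5 and 109.8% with lists of equal length. On all other chromosomes together the values were 75.1%, 81.3%, 84.2%, 87.3% and 99.3%. Lists of equal length have equal numbers over all chromosomes by construction. The control share with a partner, 63.5%, became 67.8%, 69.5%, 71.2% and 75.02% under these limits, 56.6% with 50% of the region covered, 47.9% if reciprocal and 67.9% when partners within 500 bp counted. The knockdown share, 78.8%, became 76.0%, 74.0%, 72.9%, 68.3%, 69.9%, 60.4% and 85.5%. Neither share is set beside the other chromosomes under these settings. The excess over fold, 6.30 points, was 2.43 with reciprocal overlap (0.84 to 4.03), 7.91 with summit bands, 4.22 with fold and width and 0.90 with width alone (-0.65 to 2.42), the last added after seeing the data. Windows above the share given by fold, 10, numbered 1 with reciprocal overlap, 16 with summit bands, 5 with fold and width and 1 with width alone. The median log2 summit ratio, -0.14, was -0.18 at a fold of 5, -0.21 with equal lists and -0.10 when scaled to surrounding reads. Leaving out any of the 3 chromosomes kept the number, both partner shares, the excess and the summit ratio within their intervals; it was not run for the windows, widths and folds. For none of these shifts was the cause tested. Scaled summit limits were added after seeing the data. The lowest summits, of 3 or 4 reads, leave weak regions found in 1 list undecided.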
